A study of Mus musculus with 6 samples.

Results

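The genes described here make or use nicotinamide adenine dinucleotide (NAD) in mouse macrophages: 5 salvage genes (Nampt, Naprt, Nmnat1, Nmnat3 and Nadk), 4 genes of the kynurenine route (Ido1, Kmo, Kynu and Haao) and the NAD-consuming ectoenzyme gene Cd38. They were taken by symbol, 10 of the 36706 entries in each table, from 6 RNA sequencing libraries of wild-type bone marrow-derived macrophages. In 3 of these libraries the cells had been treated for 3 h with interferon-gamma (IFN-γ), the main macrophage-activating signal of T and NK cells, and in the other 3 they were left untreated. Both groups were grown from bone marrow in M-CSF, the macrophage growth factor, at 20 ng/mL. The study's question was how IFN-γ induces ACOD1, the itaconate-making enzyme. The 10 genes were chosen by their role and by their counts in IFN-γ against untreated libraries, so their counts, levels and fold changes are a description and no p-value is printed for them.

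NAD carries electrons in metabolism and is also cut up by signalling enzymes, so cells keep remaking it. In the kynurenine route, indoleamine 2,3-dioxygenase opens the ring of tryptophan, and later enzymes turn kynurenine into quinolinate, from which NAD can be built. Salvage is the shorter route: nicotinamide released by NAD-consuming enzymes is joined to a ribose phosphate by NAMPT and then adenylated by an NMNAT enzyme. In macrophages and dendritic cells, tryptophan breakdown by IDO1 is a classic response to IFN-γ.

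The tables held 32628170 to 34233607 counts in the IFN-γ libraries and 28133342 to 31173432 counts in the untreated libraries. Levels are in CPM, counts relative to library size after scaling by the trimmed mean of M values (TMM), and 3 counts in 1 library correspond to 0.089 to 0.101 CPM. Of 6 macrophage markers (Adgre1, Csf1r, Cd68, Itgam, Mertk and Lyz2), all were detected, Adgre1 (log2 fold change 0.38) and Csf1r (0.36) were called higher with IFN-γ and none lower. Over all genes tested, 19.6% were called higher and 16.8% lower. The summed level of the 6 markers was 19360 to 20589.7 CPM with IFN-γ and 18710 to 20170 CPM untreated, most of it from Lyz2, which averaged 15250 CPM with IFN-γ and 15490 CPM untreated. The 5 T and NK cell markers summed to at most 0.297 CPM and the 3 B cell markers to at most 0.237 CPM in a library, with Cd3e at 0 counts throughout. In bulk RNA, fewer cells of a type and less RNA per cell cannot be told apart. The labels do not say whether replicates are separate mice or cultures; p-values given for other genes therefore cover only the spread between these libraries, which may be technical.

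Of the 10 genes, 9 passed the filter on low counts and Ido1 did not. With IFN-γ, 5 were called higher (Nampt, Kmo, Kynu, Cd38 and Nadk) and 1 lower (Nmnat3) by edgeR's quasi-likelihood test at an adjusted p under 0.05. Over all 12968 genes tested the same call was made higher for 19.6% and lower for 16.8%. At least 2-fold and called higher were 4 of the 9, against 6.17% of all genes tested. The groups did not overlap for 6 of the 9 genes, against 50.1% of all genes tested. Because this contrast was known when the genes were chosen, nothing is read from these counts. The median log2 fold change of the 9 was 0.57, against -0.014 over all genes tested.

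**Figure D1:**
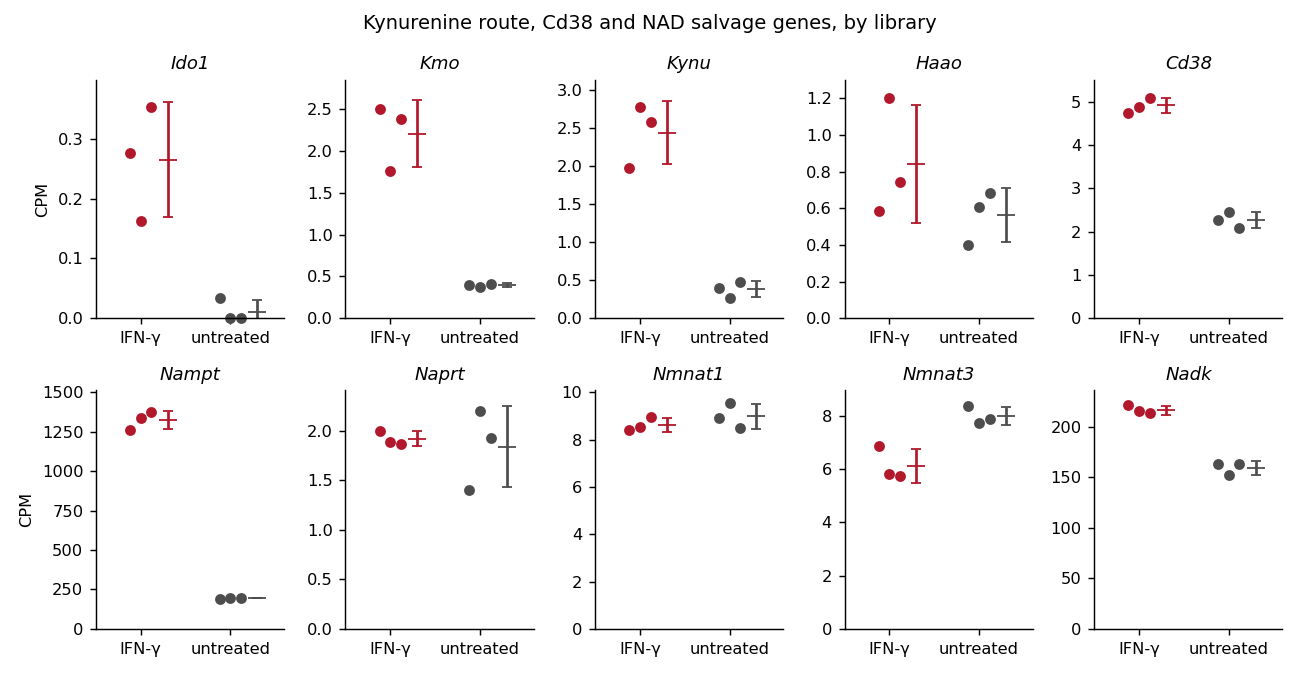
Each panel plots 1 gene's level in CPM on a linear axis from 0, with 1 point per library and the mean ± SD (n = 3) beside it, IFN-γ at the left and untreated at the right. The groups stand apart for Ido1, Kmo, Kynu, Cd38, Nampt, Nmnat3 and Nadk, and overlap for Haao, Naprt and Nmnat1; Ido1 rests on at most 11 counts in a library.

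Ido1, whose enzyme takes the first and rate-limiting step from tryptophan to kynurenine, was barely detected. It had 9, 5 and 11 counts in IFN-γ replicates 1, 2 and 3, against 1, 0 and 0 counts in untreated replicates 1, 2 and 3. The IFN-γ libraries all stood above the limit of 3 counts and the untreated ones all below it. Pooled over libraries and scaled by total counts, the ratio was 22.0, with an exact 95% interval of 3.6 to 904 that covers counting error only. The level stayed low, at 0.265 ± 0.0964 CPM with IFN-γ and 0.0111 ± 0.0192 CPM untreated (mean ± SD, n = 3 each). The tables place Ido1 on chromosome 8, minus strand, from 25074149 to 25086968. All gene coordinates are as the tables give them, with no build named, and they do not match mm10, the build in the submitters' processing notes.

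Kmo and Kynu, the next genes of the route measured here, showed larger counts. Kmo encodes kynurenine 3-monooxygenase, a mitochondrial enzyme that hydroxylates kynurenine, and lies on chromosome 1, plus strand, from 175459759 to 175488419. Its counts were 81, 54 and 74 with IFN-γ, against 12, 11 and 14 untreated. Every IFN-γ library was above every untreated one, at 2.21 ± 0.397 against 0.395 ± 0.0217 CPM (SD, n = 3 each). Kmo thus had a log2 fold change of 2.47 ± 0.22 (SE), 5.55-fold.

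Kynu encodes kynureninase, which splits kynurenine and 3-hydroxykynurenine into anthranilates, and lies on chromosome 2, plus strand, from 43445270 to 43573060. It had 64, 85 and 80 counts with IFN-γ, against 12, 8 and 16 untreated. The groups were again apart, at 2.44 ± 0.416 and 0.381 ± 0.103 CPM, and the log2 fold change was 2.65 ± 0.24. By size of log2 fold change, Kynu was 154th and Kmo 180th from the top of the 12968 genes tested.

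Haao encodes the dioxygenase that makes the precursor of quinolinate and lies on chromosome 17, minus strand, from 84138777 to 84157589. Its counts of 19, 37 and 23 with IFN-γ overlapped those of 12, 18 and 23 untreated. The log2 fold change was 0.57 ± 0.33, with IFN-γ replicate 2 the highest library of the 6. Without that library the log2 fold change was 0.23.

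The remainder of the route was measured on 9 other genes, of which 4 did not pass the filter. Of the 5 tested, 2 rose and 1 fell (edgeR, adjusted over all genes), with a median log2 fold change of -0.086. For this and each list below, the shares over all genes tested were 19.6% called higher and 16.8% lower. Ido2, the gene of a second and weaker indoleamine dioxygenase, had 26, 18 and 20 counts with IFN-γ, against 2, 4 and 9 untreated. It rose by 2.06 ± 0.4 on the log2 scale (edgeR adjusted p = 0.0048). Without untreated replicate 3, the highest untreated library, the change was 2.69 (edgeR adjusted p = 0.00376), and without untreated replicate 1 it was 1.71 (edgeR adjusted p = 0.0102). Ido2 and Ido1 are neighbours on the minus strand of chromosome 8, with 7718 bases and no other listed entry between them. Tdo2, the gene of the liver-type tryptophan dioxygenase, had 2 to 5 counts in every library of either group and was not tested. The formamidase gene Afmid, named after its values were seen, belongs to the step between Ido1 and Kmo. It had 117, 103 and 124 counts with IFN-γ, against 117, 114 and 131 untreated. Its log2 fold change of -0.086 ± 0.1 did not pass the test (edgeR adjusted p = 0.56). In GENCODE M21 transcripts, 40.3% of its 50-base stretches occur in another gene, mainly Gm20708.

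The kynurenine aminotransferase genes Kyat3 and Kyat1, whose enzymes turn kynurenine into kynurenic acid on a side branch, had changes of opposite sign. Aadat, a further aminotransferase gene of the list named after its values were seen, had 0 counts in all 6 libraries. Kyat3 had 7.05, 7.49 and 7.05 CPM with IFN-γ, against 3.52, 4.43 and 4.63 CPM untreated, and rose by 0.78 ± 0.11 on the log2 scale (edgeR adjusted p = 0.00104). Kyat1 had 1.42, 1.47 and 1.48 CPM with IFN-γ, against 1.89, 2.5 and 2.08 CPM untreated. It fell with a log2 fold change of -0.57 ± 0.15 (edgeR adjusted p = 0.0207), a call lost without any 1 IFN-γ library (adjusted p from 0.0602 to 0.0697) and with DESeq2 (0.059).

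The genes around quinolinate, the next step after Haao, were at the edge of detection. Qprt, whose enzyme turns quinolinate into nicotinate mononucleotide, had 0, 1 and 1 counts with IFN-γ, against 2, 1 and 2 untreated. Acmsd, whose enzyme diverts the quinolinate precursor away from NAD, had a single count, in untreated replicate 3. Both are at or below the limit of 3 counts in every library, so a difference was not detectable at this depth. Nadsyn1, the NAD synthetase that ends both this route and salvage from nicotinic acid, was detected, at 6.01 ± 0.331 CPM with IFN-γ and 6.65 ± 1.15 CPM untreated (SD, n = 3 each). Its log2 fold change was -0.15 ± 0.13 and did not pass the test (edgeR adjusted p = 0.436).

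Dendritic cells also express tryptophan-degrading enzymes, and only some of their markers rose with IFN-γ. Of 6 dendritic cell markers (Flt3, Zbtb46, Xcr1, Clec9a, Siglech and Ccr7), 2 rose, none fell, and none was at 0 in all libraries. Over all genes tested, 19.6% were called higher and 16.8% lower. The summed level of the 6 markers was 6.71 to 7.3 CPM with IFN-γ and 2.79 to 3.08 CPM untreated. Xcr1, the chemokine receptor of cross-presenting dendritic cells, had 104, 78 and 103 counts with IFN-γ, against 18, 23 and 13 untreated. It rose by 2.37 ± 0.24 on the log2 scale (edgeR adjusted p = 0.00011). Clec9a, a dead-cell receptor of the same cells, had 31, 30 and 26 counts with IFN-γ, against 10, 10 and 6 untreated, and rose by 1.71 ± 0.28 (edgeR adjusted p = 0.00174). The other 4 markers did not pass the test, with log2 fold changes of 0.57 ± 0.32 for Flt3, 0.94 ± 0.33 for Zbtb46, 0.62 ± 0.62 for Siglech and 0.21 ± 0.23 for Ccr7. The part of such cells in the counts of Ido1, Ido2, Kmo and Kynu was not tested.

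**Figure D2:**
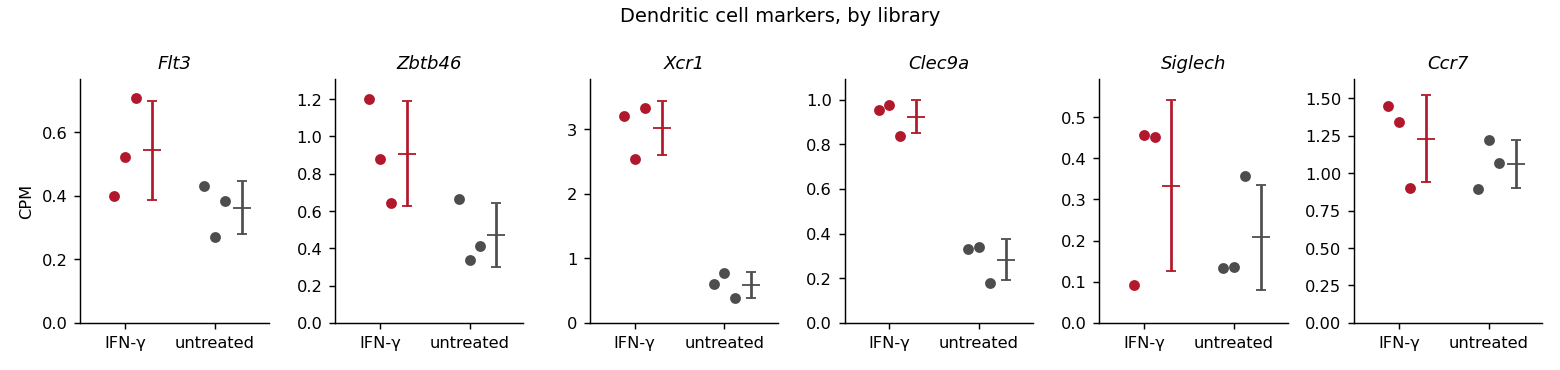
Levels of 6 dendritic cell markers in CPM on linear axes from 0, with 1 point per library and the mean ± SD (n = 3) beside it, IFN-γ at the left and untreated at the right. Xcr1 and Clec9a stand apart between groups, while Flt3, Zbtb46, Siglech and Ccr7 overlap.

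Nampt, the gene of the rate-limiting enzyme of salvage from nicotinamide, was the most abundant of the 10 genes with IFN-γ. Its levels were 1263, 1337 and 1372 CPM in IFN-γ replicates 1, 2 and 3, against 192, 194 and 195 CPM in untreated replicates 1, 2 and 3. The untreated libraries lay within a few CPM of each other and far below every IFN-γ library. The counts behind them were 40994, 41072 and 42590 with IFN-γ and 5788, 5723 and 6569 untreated. This gave a log2 fold change of 2.77 ± 0.063, or 6.84-fold, 142nd from the top of all genes tested. Per length, Nampt averaged 583 TPM (counts per gene length, relative to the library) with IFN-γ and 92.7 TPM untreated, which ranked it 298th and 1490th among all listed entries in those groups. The tables place it on chromosome 12, plus strand, from 32870334 to 32903368. Neutrophils also express Nampt. Of 4 neutrophil and progenitor markers, 1 (S100a8) rose and none fell, against 19.6% called higher and 16.8% lower over all genes tested. Their summed level was 53.7 to 56.3 CPM with IFN-γ and 30.0 to 43.2 CPM untreated. Most of it came from S100a8, which averaged 53.5 CPM with IFN-γ and 33.6 CPM untreated. Mpo (log2 fold change 0.5 ± 0.24) and Elane (0.72 ± 0.34) did not pass the test, and Ly6g had at most 2 counts in a library. The part of such cells in the Nampt level was not tested.

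The other salvage genes had log2 fold changes between -0.38 and 0.44. Naprt encodes the enzyme that starts salvage from nicotinic acid and lies on chromosome 15, minus strand, from 75762812 to 75766330. It had 2.0, 1.89 and 1.87 CPM with IFN-γ, against 1.4, 2.2 and 1.93 CPM untreated. These overlapped, and its log2 fold change of 0.061 ± 0.18 was -0.09 with upper quartile scaling, -0.11 with total counts and -0.1 without untreated replicate 1, its lowest library.

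Nmnat1 and Nmnat3 encode the nuclear and the mitochondrial enzyme that complete NAD by adding the adenylate. Nmnat1 lies on chromosome 4, minus strand, from 149552026 to 149569667. It was at 8.41, 8.53 and 8.96 CPM with IFN-γ, against 8.91, 9.54 and 8.48 CPM untreated, and its log2 fold change was -0.055 ± 0.079. The groups overlapped, but with total count scaling it was called lower, at -0.22. Nmnat3 lies on chromosome 9, plus strand, from 98169487 to 98302586, and had 6.87, 5.8 and 5.73 CPM with IFN-γ, against 8.38, 7.71 and 7.89 CPM untreated. All IFN-γ libraries were below all untreated ones, and the log2 fold change was -0.38 ± 0.1. The call was lost without untreated replicate 1 (-0.35), IFN-γ replicate 2 (-0.34) or IFN-γ replicate 3 (-0.33).

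Nadk encodes the cytosolic kinase that turns NAD into NADP, the carrier used by the phagocyte oxidase and by biosynthesis. It lies on chromosome 4, plus strand, from 155646838 to 155675458. Its levels were 221, 215 and 213 CPM with IFN-γ, against 163, 152 and 163 CPM untreated. The groups did not overlap, and the log2 fold change was 0.44 ± 0.055, or 1.36-fold, and 0.27 with total count scaling.

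Of 8 other salvage, phosphorylation and transport genes, 5 were tested, of which 1 rose and 3 fell (edgeR, adjusted over all genes), with a median log2 fold change of -0.22. Pnp encodes purine nucleoside phosphorylase, which cleaves nicotinamide riboside to nicotinamide besides its purine substrates. It had 17430, 19640 and 20227 counts with IFN-γ, against 5603, 6242 and 6394 counts untreated, and every IFN-γ library was the higher. It rose by 1.64 ± 0.092 on the log2 scale, or 3.11-fold (edgeR adjusted p = 3.59e-06). In GENCODE M21 transcripts, 18.9% of the 50-base stretches of Pnp occur in another gene, mainly the predicted gene Gm49342, so its count is uncertain as a single gene.

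The 3 that fell included the kinases of a second salvage entry and of mitochondrial NADP. Nmrk1, the nicotinamide riboside kinase gene, averaged 8.05 ± 0.133 CPM with IFN-γ and 11.5 ± 0.522 CPM untreated, a log2 fold change of -0.52 ± 0.073 (edgeR adjusted p = 0.000883). Nadk2, the mitochondrial NAD kinase gene, averaged 11.1 ± 0.182 CPM with IFN-γ and 15.9 ± 1.08 CPM untreated, a log2 fold change of -0.52 ± 0.076 (edgeR adjusted p = 0.0011). Nadk2 and Nadk therefore had changes of opposite sign, under every scaling tried. The third, named after its values were seen, was the mitochondrial NAD carrier gene Slc25a51, at -0.22 ± 0.051, a call lost without IFN-γ replicate 2 (adjusted p = 0.0552). Nmnat2 and Nmrk2, also named after their values were seen, had 0 counts in all 6 libraries.

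Promoter sequences from RefSeq on build GRCm38.p6, running from 250 bases before to 50 bases after the annotated start, were matched by symbol for 7 of the 10 genes; Ido1, Kynu and Naprt had none. They were searched on both strands for the interferon element ISRE (GAAA, then 2 bases of any kind, then GAAA) and the E-box (CACGTG), through which circadian clock factors are known to drive Nampt. Of 32851 promoters of the same length, 3.44% held the ISRE letters and 7.15% the E-box. The 3 genes higher by at least 2-fold that have an entry (Nampt, Kmo and Cd38) and the second of 2 Nadk promoters are shown, 5′ to 3′ on the gene's strand, with any match in capitals. They are chr12:32820085-32820384 (plus) for Nampt, chr1:175631943-175632242 (plus) for Kmo, chr5:43868559-43868858 (plus) for Cd38 and chr4:155563565-155563864 (plus) for Nadk.
Nampt: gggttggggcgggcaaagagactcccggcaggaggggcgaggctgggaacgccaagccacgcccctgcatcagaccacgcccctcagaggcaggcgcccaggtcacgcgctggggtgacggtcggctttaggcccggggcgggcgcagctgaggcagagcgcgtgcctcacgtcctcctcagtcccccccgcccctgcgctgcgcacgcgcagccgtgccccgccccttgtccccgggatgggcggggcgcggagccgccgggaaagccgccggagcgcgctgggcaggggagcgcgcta
Kmo: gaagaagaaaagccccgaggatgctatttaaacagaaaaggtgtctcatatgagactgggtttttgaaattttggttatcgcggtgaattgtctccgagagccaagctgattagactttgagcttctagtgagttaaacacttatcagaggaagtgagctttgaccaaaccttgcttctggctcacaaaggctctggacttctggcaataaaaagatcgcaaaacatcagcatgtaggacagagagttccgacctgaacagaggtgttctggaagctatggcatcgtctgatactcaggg
Cd38: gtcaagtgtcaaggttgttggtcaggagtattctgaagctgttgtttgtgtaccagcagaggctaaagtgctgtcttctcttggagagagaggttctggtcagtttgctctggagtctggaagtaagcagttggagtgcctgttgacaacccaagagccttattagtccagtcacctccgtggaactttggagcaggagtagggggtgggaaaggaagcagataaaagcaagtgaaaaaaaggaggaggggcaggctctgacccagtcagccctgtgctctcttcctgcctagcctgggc
Nadk: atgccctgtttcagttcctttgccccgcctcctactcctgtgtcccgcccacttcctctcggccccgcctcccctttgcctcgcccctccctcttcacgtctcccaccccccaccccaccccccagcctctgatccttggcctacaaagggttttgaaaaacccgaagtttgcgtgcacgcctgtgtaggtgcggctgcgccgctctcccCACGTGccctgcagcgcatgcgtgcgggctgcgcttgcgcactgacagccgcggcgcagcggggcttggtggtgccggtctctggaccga
No ISRE letters occurred in these 4 windows or in the other promoters of the 7 genes. The single match, overlapping no other, was an E-box in the second Nadk promoter, beginning 40 bases before the start. The windows differ in base composition, with 76.3% G and C for Nampt, 67.0% for Nadk, 51.7% for Cd38 and 44.3% for Kmo. A match or its absence describes only the letters in this window.

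Cd38 encodes a surface enzyme that cleaves NAD to nicotinamide and ADP-ribose and is a main NAD consumer in inflammatory macrophages. Its levels were 4.74, 4.88 and 5.09 CPM with IFN-γ, against 2.26, 2.44 and 2.08 CPM untreated. The groups were well apart, with a log2 fold change of 1.12 ± 0.11, or 2.18-fold. It lies on chromosome 5, plus strand, from 44026151 to 44069716.

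Among 11 other NAD-consuming enzyme genes, all tested, 2 rose and 2 fell (edgeR, adjusted over all genes), with a median log2 fold change of -0.094. Bst1, the Cd38 relative whose product also makes cyclic ADP-ribose, lies on the same strand of chromosome 5, with 25340 bases and 1 listed entry between them. It had 48.5, 47.4 and 51.0 CPM with IFN-γ, against 19.2, 20.6 and 20.2 CPM untreated, and rose by 1.29 ± 0.062 on the log2 scale (edgeR adjusted p = 1.48e-06). Per length, Bst1 stood above Cd38 in both groups, at 42.0 ± 1.68 against 3.26 ± 0.0542 TPM with IFN-γ and 18.6 ± 1.07 against 1.63 ± 0.0665 TPM untreated. Parp1, the main DNA damage-activated poly-ADP-ribose polymerase gene, averaged 115 ± 6.83 CPM with IFN-γ and 152 ± 11.5 CPM untreated. It fell with a log2 fold change of -0.41 ± 0.074 (edgeR adjusted p = 0.00344).

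The sirtuin genes, whose products are NAD-dependent deacylases, showed small differences. Sirt1 was at 29.6 ± 0.488 CPM with IFN-γ and 28.6 ± 0.916 CPM untreated, a log2 fold change of 0.051 ± 0.059 (edgeR adjusted p = 0.546) that was -0.1 with upper quartile scaling and -0.12 with total counts. Sirt4 fell with a log2 fold change of -0.28 ± 0.086 (edgeR adjusted p = 0.0358), and Sirt2, named after its values were seen, rose by 0.19 ± 0.055 (edgeR adjusted p = 0.025). Both calls were lost under most alternatives. Sirt4 lost its call with DESeq2, with no filter and without any 1 library other than untreated replicate 2, and Sirt2 with upper quartile and total count scaling, with no filter and without those same libraries.

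Among genes that clear nicotinamide, Nnmt, whose enzyme methylates nicotinamide for disposal, had 0 counts in all 6 libraries, a level under 0.089 to 0.101 CPM by the limit of 3 counts per library. Of the 3 other genes of the clearance and ectonucleotidase list, all tested, none rose and 1 fell, with a median log2 fold change of -0.51. Without untreated replicate 2, 2 fell, the second being the aldehyde oxidase gene Aox1 (-0.65, edgeR adjusted p = 0.0381), named after its values were seen. Enpp1, an ectonucleotidase that cleaves extracellular nucleotides including NAD, averaged 11.1 ± 1.03 CPM with IFN-γ and 16.0 ± 0.0735 CPM untreated, a log2 fold change of -0.53 ± 0.083 (edgeR adjusted p = 0.0015).

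Genes of tryptophan uptake and of its other uses were called in both directions. Of 11 genes, 8 were tested, of which 4 rose and 3 fell (edgeR, adjusted over all genes), with a median log2 fold change of 0.17. Over all genes tested, 19.6% were called higher and 16.8% lower, so nothing is read from these counts. Wars, the cytosolic tryptophanyl-tRNA synthetase gene and a known interferon target, had 4162, 3963 and 3875 counts with IFN-γ, against 1589, 1462 and 1687 counts untreated. It rose by 1.33 ± 0.054 on the log2 scale, or 2.51-fold (edgeR adjusted p = 5.35e-07). Slc7a8, a light subunit of neutral amino acid transport, averaged 482 ± 47.8 CPM with IFN-γ and 337 ± 38.0 CPM untreated and rose by 0.52 ± 0.1 (edgeR adjusted p = 0.00507). The other transporter genes of the list, named after their values were seen, were split. Slc16a10 (0.31 ± 0.055) and Slc3a2 (0.2 ± 0.063) rose, while Slc7a5 (-0.42 ± 0.085) and Slc36a4 (-0.28 ± 0.084) fell (edgeR adjusted p from 0.0031 to 0.0377). The calls of Slc3a2, Slc36a4 and Slc16a10 were lost under some alternatives. Eif2ak4, the gene of GCN2, a kinase that senses uncharged tRNA, averaged 15.4 ± 0.851 CPM with IFN-γ and 21.6 ± 2.64 CPM untreated. It fell with a log2 fold change of -0.49 ± 0.1 (edgeR adjusted p = 0.0064). Il4i1, an amino acid oxidase gene that also degrades tryptophan, had 5, 4 and 0 counts with IFN-γ, against 6, 2 and 2 untreated; 96.7% of its exon bases overlap the listed entry Il4i1b on the same strand.

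The list of genes that sense kynurenine and niacin held the largest change among the 6 other lists, that of the niacin receptor gene Hcar2. Of 9 genes, 8 were tested, of which 3 rose and 1 fell (edgeR, adjusted over all genes), with a median log2 fold change of 0.22. The 1 that fell, named after its values were seen, was the metabolite receptor gene Gpr35. It averaged 10.1 ± 0.494 CPM with IFN-γ and 12.9 ± 0.66 CPM untreated, a log2 fold change of -0.35 ± 0.077 (edgeR adjusted p = 0.00903). Hcar2, the receptor gene for niacin and ketone bodies, had 1219, 1047 and 1084 counts with IFN-γ, against 65, 70 and 60 untreated. Its level was 35.5 ± 1.81 CPM with IFN-γ and 2.1 ± 0.299 CPM untreated, a rise of 4.08 ± 0.11 on the log2 scale, or 16.9-fold (edgeR adjusted p = 4.5e-08).

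Both target genes of the aryl hydrocarbon receptor that act as its feedback inhibitors rose, while the receptor's own gene did not pass the test. Ahrr, the receptor's repressor, had 24.7, 21.5 and 22.0 CPM with IFN-γ, against 9.44, 7.14 and 8.66 CPM untreated, and rose by 1.44 ± 0.11 (edgeR adjusted p = 2.6e-05). Tiparp, an ADP-ribosyltransferase gene, had 70.6, 73.9 and 70.7 CPM with IFN-γ, against 33.1, 31.2 and 33.7 CPM untreated, and rose by 1.13 ± 0.058 (edgeR adjusted p = 2.12e-06). Ahr itself averaged 1.86 ± 0.117 CPM with IFN-γ and 2.08 ± 0.298 CPM untreated, a log2 fold change of -0.16 ± 0.15 (edgeR adjusted p = 0.446). Cyp1a1, the receptor's best known target and named after its values were seen, had 0, 3 and 0 counts with IFN-γ, against 1, 1 and 0 untreated. Cyp1b1, a further target named in the same way, had 12, 11 and 12 counts with IFN-γ, against 10, 11 and 5 untreated. Its log2 fold change was 0.41 ± 0.37 and did not pass the test (edgeR adjusted p = 0.434). The target Nqo1, also named after its values were seen, averaged 7.79 ± 0.989 CPM with IFN-γ and 8.61 ± 0.474 CPM untreated. Nqo1 did not pass the test either, at -0.15 ± 0.11 (edgeR adjusted p = 0.34), and was called lower with total counts (-0.32).

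Over the 6 lists together, 40 of 52 genes were tested, of which 12 rose and 11 fell, with a median log2 fold change of -0.067. Over all genes tested, 19.6% were called higher, 16.8% lower, and the median was -0.014.

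**Figure D3:**
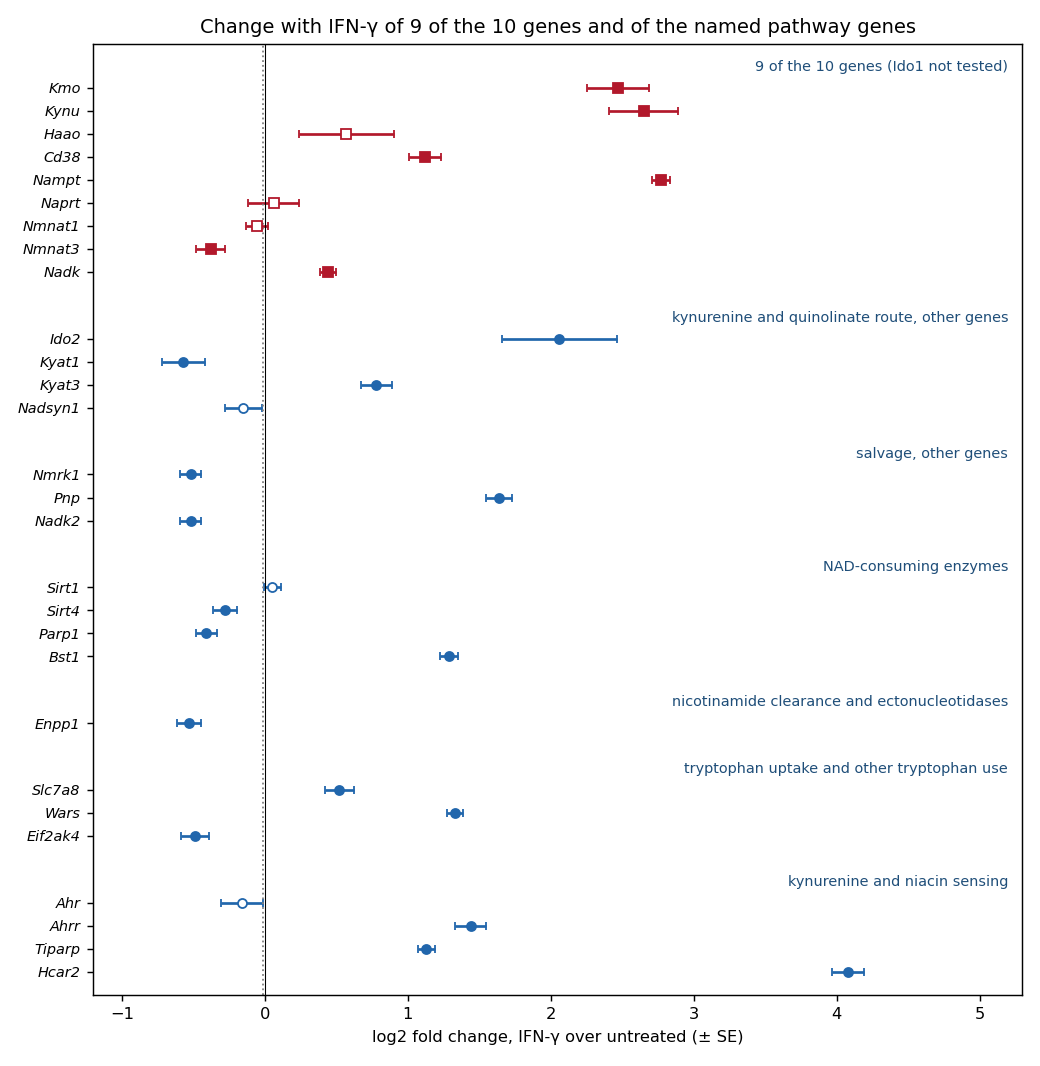
Log2 fold change of IFN-γ over untreated with its standard error, for 9 of the 10 genes (squares) and for the named genes of 6 other lists (circles), filled where the adjusted p was under 0.05; the dotted line is the median over all genes tested. Hcar2 lies farthest to the right at 4.08, Nampt, Kynu and Kmo lie between 2.47 and 2.77, and the falls end at -0.57 for Kyat1.

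Compared per length in TPM, the 10 genes covered a wide range. With IFN-γ the order of mean levels was Nampt at 583, Nadk at 129, Nmnat1 at 7.07, Nmnat3 at 3.83, Cd38 at 3.26, Naprt at 2.04, Kmo at 1.78, Kynu at 0.94, Haao at 0.353 and Ido1 at 0.299 TPM. Of neighbours in this order, Naprt and Kmo overlapped between libraries, and so did Haao and Ido1. In untreated cells the order began with Nadk at 103 and Nampt at 92.7 TPM, whose libraries overlapped. It went on with Nmnat1 at 7.97, Nmnat3 at 5.43, Naprt at 2.1, Cd38 at 1.63, Kmo at 0.346, Haao at 0.257, Kynu at 0.162 and Ido1 at 0.0142 TPM, with overlaps between Naprt and Cd38 and along Kmo, Haao and Kynu. Nampt thus stood 4.52-fold above Nadk with IFN-γ, while the pair overlapped without it, and Cd38 stood above Naprt only with IFN-γ. TPM are relative to each library's total without TMM scaling, so differences between groups are taken from CPM.

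**Figure D4:**
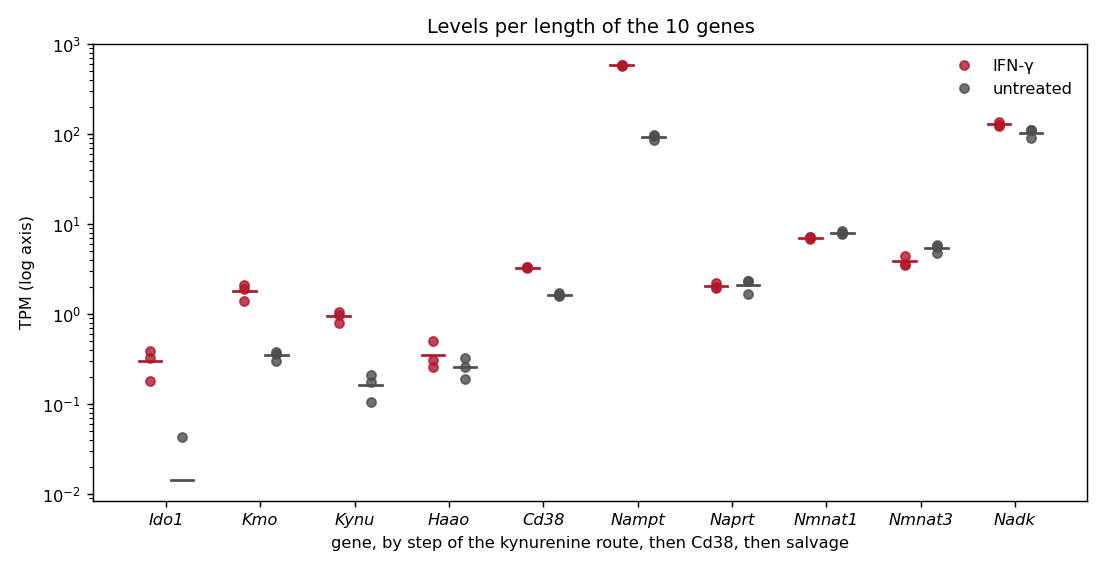
Levels per length in TPM on a log axis, with 1 point per library and a bar at the group mean, IFN-γ at the left of each pair and untreated at the right; untreated replicates 2 and 3 of Ido1 were at 0 and have no point. The group means of Nampt and Nadk lie at 92.7 TPM or more in both groups, and those of the 4 kynurenine route genes at 1.78 TPM or less.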

How the data were processed

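RNA sequencing was done on 3 libraries of IFN-γ-treated and 3 of untreated mouse bone marrow-derived macrophages, made with a stranded mRNA kit (KAPA), per the labels' protocols. Reads were aligned with HISAT2 to mm10, per the submitters' processing notes. Not given in the sources used here is how they were counted, and with what use of strand and multiple mapping. Each table holds deposited counts (whole numbers, not normalized), TPM and FPKM per gene, per the file headers. The deposited TPM were recomputed from counts and lengths to a relative difference of 1.1e-13 and used only to compare genes; the deposited FPKM were not used.

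Counts were fitted over the whole table with edgeR 4.0.16 in R 4.3.3: filterByExpr (minimum count 10, minimum total 15), TMM, glmQLFit and glmQLFTest, two-sided, Benjamini-Hochberg adjustment over 12968 genes, threshold 0.05. CPM use the TMM factors, and standard errors are log2 fold changes divided by the root of F. The test was checked on simulated data. Intervals and limits of 3 counts cover counting error only. No replicate pair was as alike as sampling noise alone allows (chi-square over its degrees of freedom 2.05 to 81.1).

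The 10 genes, the 6 other lists (52 genes) and the markers were chosen with earlier results of these data known. Named are the 10 genes; up to 3 called genes per other list with the largest change and a mean of at least 1 CPM, or the most abundant tested gene where none was called; and 14 genes named whatever their result. Exceptions are said to be so. Shared 50-base stretches were counted in GENCODE M21 transcripts, exon overlaps in the tables' own coordinates. Exons of the 10 genes overlapped other listed entries by at most 6.32% of a gene's exon bases (Ido1, with Gm51565 on the other strand, which had 0 counts), and at most 9.32% of their 50-base stretches (Naprt) occurred in another gene. Alternatives were scaling by RLE, by upper quartile or by total counts, no filter, DESeq2 1.42.0, the replicate number as a block, and each library left out. Figures used Python 3.11.15 and matplotlib 3.10.9.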

Additional observations from a re-analysis of the deposited data

How the results depend on the processing

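Each result was recomputed under 12 alternatives. The 5 genes called higher among the 10 stayed 5 in all but the fit with no filter, where Ido1 joined them to make 6. The 1 called lower was 2 with total counts and 0 to 1 with a library left out. Upper quartile scaling shifted the median of all genes by -0.15 and total counts by -0.17 on the log2 scale, and these moved the balance most: over all genes, 4097 were lower with upper quartile scaling, and 1666 were higher and 4520 lower with total counts, against 2539 and 2176. Of the NAD-consuming enzyme genes, 1 was higher and 4 lower under either scaling, 1 and 1 with no filter, and 1 lower with DESeq2; with a library left out 1 to 2 were higher and 1 to 2 lower. Total counts gave 2 lower in the clearance list (also 2 with upper quartile scaling, and 1 to 2 with a library left out), 2 higher in the tryptophan list and 2 lower in the sensing list. The 1 lower gene of the kynurenine list, Kyat1, was 0 with DESeq2 and 0 to 1 with a library left out. Sirt1 changed sign with upper quartile scaling (-0.1) and total counts (-0.12). Among genes named by the rule, Sirt4 lost its call in 7 alternatives, Kyat1 in 4 and Nmnat3 in 3. Some genes named after their values were seen also lost calls, Sirt2 and Slc3a2 under most alternatives. Same-numbered libraries did not deviate together in every pair (correlations 0.406, 0.223 and -0.131), so the numbers were not taken as pairs; IFN-γ replicate 3 correlated best with untreated replicate 2 (0.326). The fit with the replicate number as a block kept 5 of the 10 genes higher and 1 lower and, over all genes, gave 2723 higher and 2327 lower. Depth limits Ido1, Qprt, Acmsd, Tdo2, Il4i1 and Cyp1a1, each at 11 counts or fewer in every library.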

Other observations

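In 2 pairs of neighbouring related genes, both members had more counts in every IFN-γ library than in any untreated one: Ido1 with Ido2 on chromosome 8, and Cd38 with Bst1 on chromosome 5. The pairs were picked with earlier results of these data known. Over all genes tested, 50.1% had groups that did not overlap in CPM, in either direction, so nothing is read from this. Whether the members of a pair share a control was not tested. Pnp2, a relative of Pnp named after its values were seen, had 171, 153 and 155 counts with IFN-γ, against 35, 58 and 34 untreated. Every IFN-γ library was the higher for this gene as for Pnp. The sequence that Pnp2 shares with Pnp was not measured, and the use of multiple mapping in counting is not known. The Pnp2 count is therefore uncertain as that of a separate gene.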
